A study of Homo sapiens with 18 samples.

Results

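Transcripts of 48 genes of mitosis and the G2/M transition were followed in DLD1, an established human colorectal adenocarcinoma line. The genes were taken by symbol from a list of mitotic kinases, cyclins, kinesins, kinetochore, spindle, anaphase and cytokinesis genes. The rule uses no measured value, but the list was drawn up with earlier results of these data known. All 48 were among the 47021 genes of the poly(A) count table, and 47 were among the 14732 genes with enough counts to test; NUSAP1, a spindle protein gene, was not. The cells had been infected with lentivirus and selected with 10 µg/ml puromycin. They carried a control guide and are labelled wild type (sgC), or carried a CRISPR guide against the zinc-finger gene ZNF692 (sgZ1 or sgZ3) and are labelled ZNF692 knockout; the names sgC, sgZ1 and sgZ3 are those of the sample titles, read here as guides. Each guide had 3 poly(A) libraries, called replicates 1, 2 and 3 after their titles. Whether a line was 1 clone or a pool, and whether its replicates were grown apart, is not stated in the labels. The p-values therefore measure the spread between these libraries only, which may be technical.

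Cells prepare for division in G2 by building up cyclin B and CDK1, the kinase pair whose activation drives entry into mitosis. The checkpoint kinases then hold chromosomes at metaphase until every kinetochore is attached, after which CDC20 turns on the anaphase-promoting complex, and securin (PTTG1) and cyclin B are destroyed. Most of these genes are transcribed together late in the cycle. The MuvB core, held in the repressive DREAM complex in resting cells and joined to B-MYB and FOXM1 in dividing ones, reaches them through a short promoter element, the cell cycle genes homology region (CHR), and NF-Y binds CCAAT boxes nearby. In a bulk library, fewer cells in G2 and mitosis and less RNA per cell cannot be told apart.

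Against sgC, 20 of these transcripts were called in sgZ3 (8 higher, 17%, and 12 lower, 25.5%) and 5 in sgZ1 (3 higher, 6.38%, and 2 lower, 4.26%). Of all tested genes 19.2% were called higher and 17.1% lower in sgZ3, and 15.5% and 10.3% in sgZ1. The group's shares were smaller than these in both directions in sgZ1, and in sgZ3 smaller for higher and larger for lower. Differences in share were not tested, so the counts alone do not set the group apart. CDC25C, a phosphatase that activates CDK1, was lower under each guide, and BIRC5 (survivin) and CDC20 were higher under each, at 1.36-fold and 1.27-fold in sgZ1 and 1.58-fold and 1.46-fold in sgZ3. In sgZ3, MKI67 and CENPF, a chromosome and a kinetochore protein gene, stood at 0.409 and 0.438 times their sgC levels, while in sgZ1 they did not pass the test with all libraries. Their transcripts, 12.7 and 10.3 kb, are the longest of the list, and long transcripts as a whole stood low in sgZ3 replicates 1 and 2. With trends on length and GC content, fitted over all tested genes, removed both were still called, at log2 -0.94 and -0.80. The part of length in what remained was not tested. The sgZ3 calls of MKI67, CENPF and CDC25C each ended when certain single libraries were left out, while those of BIRC5 and CDC20 did not. In sgZ1 the calls of BIRC5 and CDC20 ended in that way, and that of CDC25C did not. CDK1, FOXM1 and most kinesins were not called.

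The shared promoter element could be seen in the reference sequence. RefSeq promoter windows (GRCh38.p14, 250 bases before to 50 after the first listed start of a gene) matched 41 of the 48 genes; FOXM1, AURKA, TTK, BIRC5, UBE2C, TPX2 and RACGAP1 had none. The CHR was searched as TTTGAA and as its variants with other middle letters, TTCGAA or alternatively TTTAAA, and the NF-Y box as CCAAT, each on both strands. Both variants read the same on either strand, the second can share letters with a TATA box, and a CHR match and an NF-Y match can overlap. Below are the 100 bases before the start for the 4 genes of each direction with the smallest p in sgZ3 among those with a CHR form in that stretch. They are written 5′ to 3′ along the gene, with CHR and CCAAT letters of either strand in capitals. The first 4 were higher and the last 4 lower in sgZ3 than in sgC.
CDC20 (chr1:43358881-43358980, plus strand): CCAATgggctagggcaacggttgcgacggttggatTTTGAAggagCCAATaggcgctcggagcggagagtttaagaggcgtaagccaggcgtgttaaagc
CCNB1 (chr5:69167050-69167149, plus strand): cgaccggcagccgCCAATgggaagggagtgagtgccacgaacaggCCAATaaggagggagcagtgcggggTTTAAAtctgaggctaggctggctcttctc
PTTG1 (chr5:160421755-160421854, plus strand): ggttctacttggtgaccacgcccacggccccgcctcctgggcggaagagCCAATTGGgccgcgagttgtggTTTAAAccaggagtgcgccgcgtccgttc
CKS2 (chr9:89311095-89311194, plus strand): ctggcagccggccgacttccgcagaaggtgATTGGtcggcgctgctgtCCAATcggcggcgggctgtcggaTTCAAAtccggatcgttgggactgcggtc
HMMR (chr5:163460532-163460631, plus strand): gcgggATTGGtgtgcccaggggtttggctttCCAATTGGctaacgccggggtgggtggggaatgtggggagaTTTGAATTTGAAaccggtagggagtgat
CKAP2L (chr2:112764610-112764709, minus strand): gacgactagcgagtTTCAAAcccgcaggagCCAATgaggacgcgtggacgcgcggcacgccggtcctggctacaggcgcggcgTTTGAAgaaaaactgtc
MKI67 (chr10:128126424-128126523, minus strand): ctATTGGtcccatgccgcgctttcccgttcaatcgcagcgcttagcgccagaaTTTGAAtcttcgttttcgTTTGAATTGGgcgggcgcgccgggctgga
KIF11 (chr10:92593030-92593129, plus strand): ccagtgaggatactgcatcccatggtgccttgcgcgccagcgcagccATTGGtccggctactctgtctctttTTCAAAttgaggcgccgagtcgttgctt
These 8 were chosen for holding a CHR form, so its presence in both directions is no result. CDC20 had TTTGAA starting 65 bases before its start with CCAAT 55 bases before it, CCNB1 had TTTAAA at 30 bases and CCAAT at 87 and 55, and HMMR had 2 adjoining copies of TTTGAA, at 28 and 22 bases. In MKI67 the TTTGAA at 29 bases overlapped a CCAAT box read on the other strand, printed as 1 run of capitals.

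A CHR form lay in 35 of the 41 windows (85.4%), against 25.3% of the windows of 27305 genes. CCAAT lay in 31 of 41 (75.6%), against 35.7% of all windows. Of 98 other mitosis genes with a window 49 held a CHR form, and of 40 DNA replication and G1/S genes 5 did. The matches of the mitosis genes were packed just before the start: 36.6% of the 41 windows had a CHR form with its first base 50 to 26 bases before it, against 3.3% of all windows. Split by the direction of the transcript in sgZ3, a CHR form was present in 5 of 6 windows of genes called higher, 9 of 11 of genes called lower and 20 of 23 of genes not called. The called genes with a window and no CHR form in it were AURKB (higher), CDC25C and CKAP2 (both lower). Only the letter forms named above were searched, and only in the window at the first listed start. A CHR form with other letters, or at another start of these genes, would be missed. These are matches of letters and were not tested as binding sites.

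**Figure D1:**
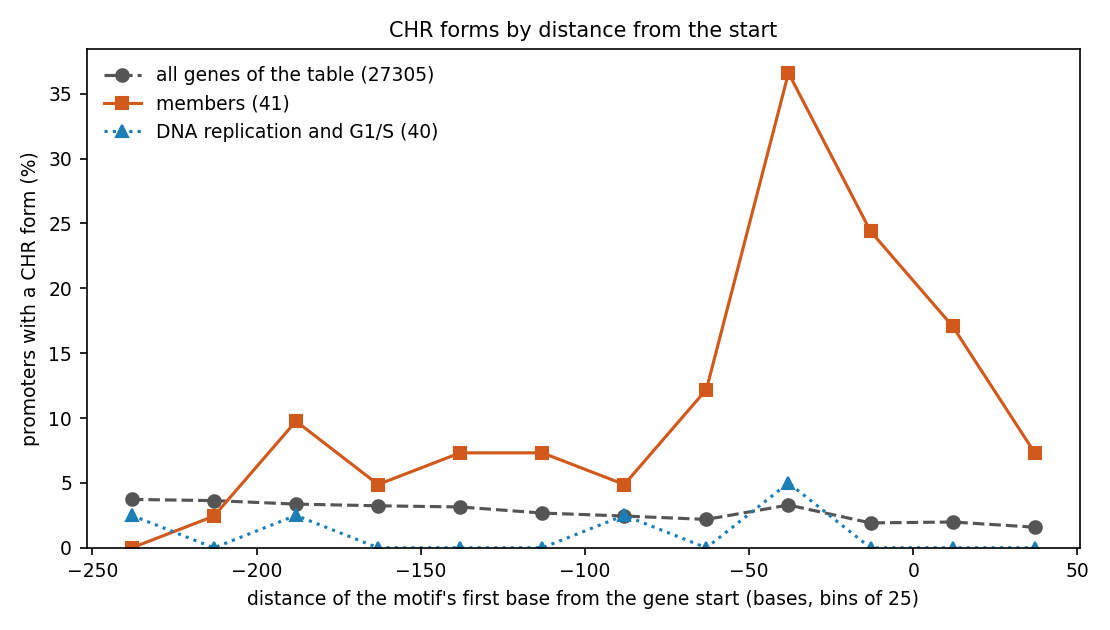
Share of promoter windows (y axis, percent) that hold a CHR form with its first base in each 25-base bin of distance from the gene start (x axis, bases; negative is upstream), for the mitosis and G2/M genes, all genes with a window, and DNA replication and G1/S genes. The mitosis and G2/M genes reach 36.6% in the bin from 50 to 26 bases before the start, where all genes are at 3.3%.

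The counts of the 9 libraries summed to between 16044224 and 24535642. Levels are given in CPM, the counts scaled to a common library size after TMM adjustment, and differences as log2 values with their standard error. Adjusted p means the Benjamini-Hochberg value of edgeR's quasi-likelihood test over the 14732 tested genes, and a gene was called at a false discovery rate under 0.05. ZNF692 lies on chromosome 1 between 248850006 and 248859144, minus strand (GRCh38). It stood at 7.01, 6.32 and 6.18 CPM in sgC, 9.64, 9.82 and 11.5 in sgZ1 and 7.92, 8.08 and 6.29 in sgZ3, so its mRNA was not lower under either guide, and it rose in sgZ1 (0.66 ± 0.14, adjusted p = 0.00475). A frameshift from cutting need not lower an mRNA, so this level does not show whether the gene was disrupted, and sgZ1 and sgZ3 stand below for the libraries labelled so. MSH6, a mismatch repair gene that is no member, stood at 67.3 to 74.8 CPM in sgZ1 and 4.4 to 9.48 in the other 6 libraries.

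Some libraries stood apart. Of the 12 epithelial markers, EPCAM and the keratins KRT8, KRT18 and KRT19 were abundant, CDX1, an intestinal transcription factor gene, was at most 0.868 CPM, and the list summed to 8830 to 10200 CPM in sgC and sgZ1 and 11000 to 11900 in sgZ3. EPCAM, KRT8 and KRT18 were called higher in sgZ3 (0.36, 0.30 and 0.31). In sgZ1, EPCAM, KRT20, CDX2, CDH17 and LGALS4 were called lower (-0.26, -0.39, -0.28, -0.55 and -1.39). CDH17, LGALS4 and CEACAM5 were lower over both guides (-0.32, -0.90 and -1.41), but none of them was called in sgZ3 (-0.08, -0.42 and -1.49). The part of these marker differences in the results was not tested. Replicate 2 of sgZ1 and replicate 3 of sgZ3 carried mesenchymal transcripts: the 12 markers summed to 114 and 118 CPM there and to 9.6 to 13.9 in the other 7 libraries. VIM was at 22.9 and 21.2 CPM, where no other library exceeded 1.22, and COL1A2, LUM and DCN were at or near 0 in all 9. Leukocyte markers summed to 5.44 to 7.1 CPM and endothelial markers to 2.46 to 4.22 in all libraries. The counts of calls are also given without these 2 libraries.

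Transcript length moved with the libraries too. For the 10 tested mitosis genes with a longest transcript under 2 kb and the 12 of 4 kb or more, the difference between the median log2 deviations (long minus short) was 0.26, 0.22 and 0.62 in sgC, 0.39, -0.35 and 0.34 in sgZ1, and -0.94, -0.93 and 0.24 in sgZ3 (replicates 1, 2 and 3). Over all tested genes the same difference was 0.19, 0.09 and 0.34 in sgC, 0.22, -0.16 and 0.05 in sgZ1, and -0.42, -0.41 and 0.07 in sgZ3. Long transcripts thus stood low and short ones high in sgZ3 replicates 1 and 2, and less so in sgZ1 replicate 2. The calls that ended or were added after per-library trends on transcript length and GC content were taken out, an alternative chosen after the data were seen, are given below. Those trends were fitted over all tested genes with a length, where the difference in sgZ3 replicates 1 and 2 was smaller than among the mitosis genes. Whether they remove the whole difference of the mitosis genes was not tested.

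**Figure D2:**
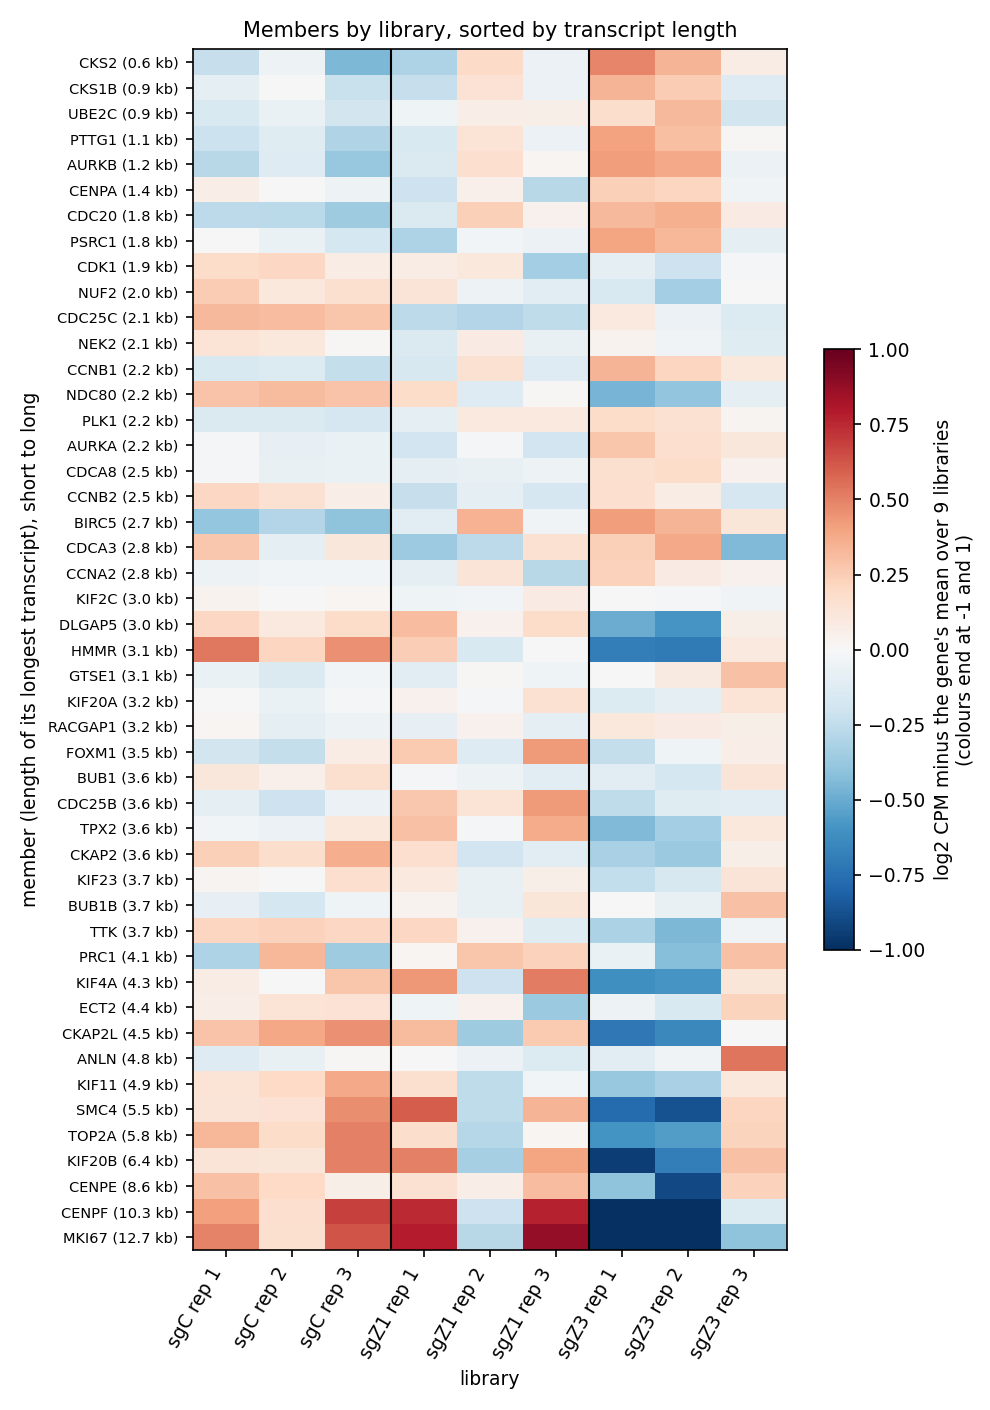
Colour shows the log2 CPM of each of the 47 tested genes minus its mean over the 9 libraries (colours end at -1 and 1). Rows are sorted from the shortest to the longest transcript and columns are libraries. In sgZ3 replicates 1 and 2 the long genes at the bottom are blue and the short ones at the top red, with medians of -0.6 and -0.62 for genes of 4 kb or more.

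Under both guides together, 7 of the 47 tested genes were called higher than in sgC and 8 lower (14.9% and 17%). Of all tested genes 18.6% were called higher and 14.6% lower, so the shares were near the background. In sgZ1, 3 were higher and 2 lower (6.38% and 4.26%), against 15.5% and 10.3% of all tested genes. In sgZ3, 8 were higher and 12 lower (17% and 25.5%), against 19.2% and 17.1%. Between the guides, 1 was higher and 6 lower in sgZ3 than in sgZ1 (2.13% and 12.8%), against 12.8% and 15.8%. The median log2 difference was -0.02 for both guides, 0 for sgZ1, -0.05 for sgZ3 and 0 between guides, where all tested genes had 0.01, 0.01, -0.02 and -0.01. The comparisons with sgC share the 3 sgC libraries.

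The 48 transcripts summed to 5940, 5880 and 5980 CPM in sgC, 5990, 6170 and 6010 in sgZ1, and 6240, 6070 and 6290 in sgZ3. By role, the mean sums in sgC, sgZ1 and sgZ3 were 1610, 1670 and 1820 CPM for the cyclin and CDK engine, 1320, 1420 and 1550 for the kinases and passenger complex, and 504, 618 and 713 for the anaphase genes. They were 167, 152 and 126 for the kinetochore, 549, 531 and 479 for the kinesins and 664, 654 and 563 for the spindle genes. The cytokinesis genes stood at 638, 594 and 658 and the chromosome genes at 481, 422 and 291. Of these 8 sums the first 3 were highest in sgZ3, the next 3 and the chromosome genes lowest there, and the cytokinesis sum was lowest in sgZ1; the differences were not tested. The spread between replicates was wider in the guide groups, with a median coefficient of variation of 5.11% in sgC, 11.2% in sgZ1 and 14.2% in sgZ3. Without sgZ1 replicate 2 and sgZ3 replicate 3, the counts were 8 higher and 20 lower for both guides, 8 and 9 for sgZ1, 11 and 21 for sgZ3, and 13 and 20 between the guides. Of 14923 genes tested then, 3442 were higher and 3967 lower for both guides and 3289 and 2605 in sgZ1. In sgZ3, 3570 and 4676 were, and 3468 and 4464 between the guides. With all libraries these counts were 2734 and 2151, 2286 and 1521, 2834 and 2521, and 1882 and 2327 of 14732. The sgZ3 libraries kept, replicates 1 and 2, were those in which long transcripts stood low. The part of this in the added calls was not tested. No call of the mitosis genes made with all libraries was lost by leaving out sgZ1 replicate 2 and sgZ3 replicate 3, and each guide then had 2 libraries. In sgZ1, FOXM1, CENPF, KIF4A, TPX2 and MKI67 were then added as higher and CDK1, NEK2, CENPA, HMMR, CKAP2, ECT2 and TOP2A as lower. MKI67 was at 0.37 (adjusted p = 0.0056) and CENPF at 0.31 (adjusted p = 0.0278) there, opposite to their direction in sgZ3. In sgZ3, CKS1B, UBE2C and PSRC1 were added as higher and CDK1, BUB1, CENPE, KIF20B, KIF23, KIF4A, TPX2, ECT2 and SMC4 as lower. With library totals in place of TMM, 3 were higher and 13 lower for both guides; the median of all tested genes then went from 0.01 to -0.09 for both guides and from -0.02 to -0.17 in sgZ3. Of all calls 56% were higher for both guides with TMM, 45.9% with upper-quartile factors and 36.6% with library totals.

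**Figure D3:**
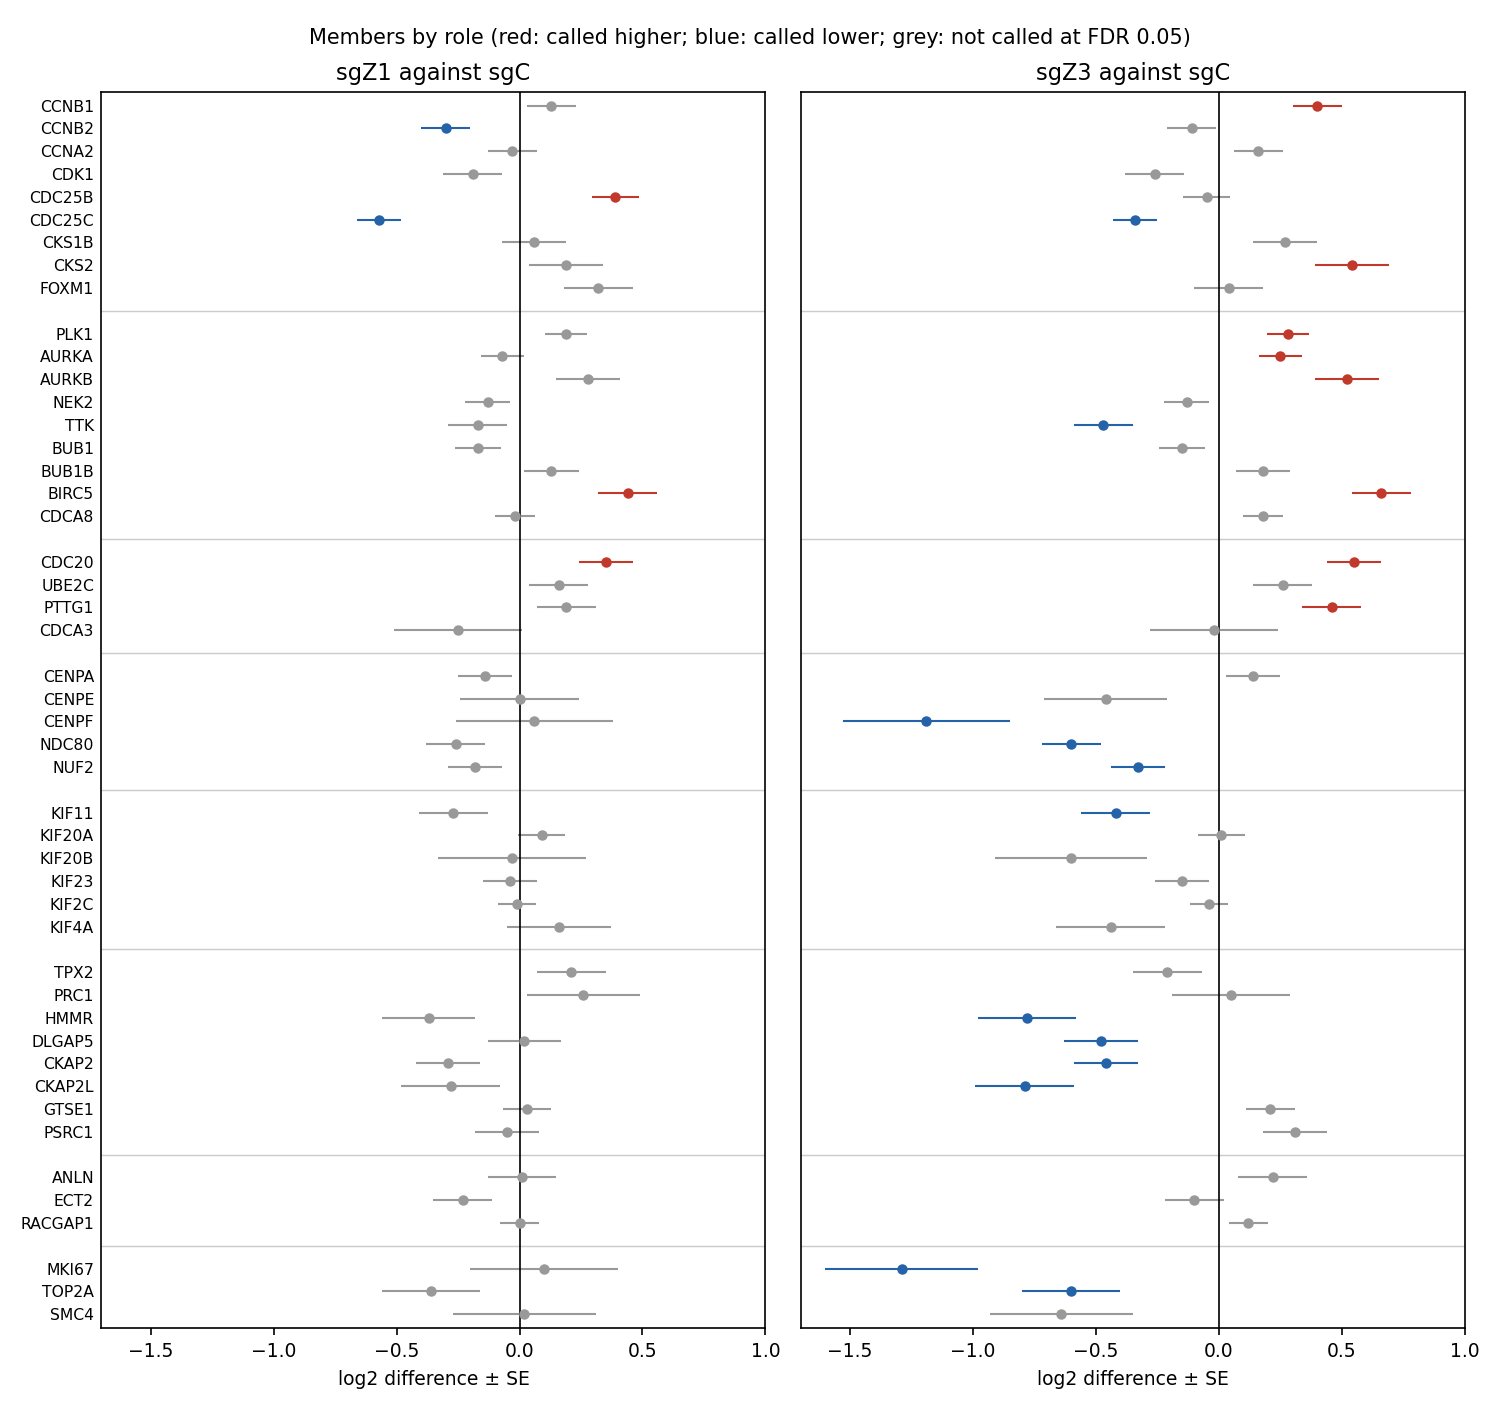
Log2 difference from sgC with its standard error (x axis) for each tested gene (rows, grouped by role and divided by grey lines) in sgZ1 (left) and sgZ3 (right). Of the 47 genes, 3 are called higher and 2 lower in sgZ1, and 8 higher and 12 lower in sgZ3.

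In the cyclin and CDK engine, 2 of 9 genes rose and 1 fell in sgZ3, and 1 rose and 2 fell in sgZ1. Counts by role, here and below, cover few genes each. Of all tested genes 19.2% were higher and 17.1% lower in sgZ3, and 15.5% and 10.3% in sgZ1. CCNB1, cyclin B1, stood at 374, 378 and 352 CPM in sgC, 372, 460 and 380 in sgZ1, and 524, 482 and 446 in sgZ3. Every sgZ3 library was above every sgC library, and sgZ1 replicate 2 stood above the other sgZ1 libraries. The transcript rose in sgZ3 by 0.40 ± 0.1 (adjusted p = 0.0104) and over both guides by 0.26 ± 0.088 (adjusted p = 0.0363); in sgZ1 the difference was 0.13 ± 0.1. Its usual partner CDK1 stood at 148, 150 and 137 CPM in sgC, 137, 140 and 103 in sgZ1, and 122, 113 and 129 in sgZ3. All sgZ3 libraries were below all sgC libraries, yet the difference of -0.26 ± 0.12 did not pass (adjusted p = 0.0971). With the length and GC trends removed CDK1 was called lower in sgZ3. CCNB2, the second B-type cyclin, was at 188 ± 9.08 CPM in sgC, 153 ± 7.91 in sgZ1 and 175 ± 20.4 in sgZ3 (SD, n = 3). It fell in sgZ1 by 0.30 ± 0.099 (adjusted p = 0.043). CCNA2, cyclin A2, ranged from 223 to 318 CPM and was not called in any comparison.

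The CDC25 phosphatases, which remove inhibitory phosphates from CDK1, moved apart. CDC25C stood at 60, 59.5 and 58.2 CPM in sgC, 40, 39.1 and 40.2 in sgZ1, and 51.2, 46.1 and 43.6 in sgZ3. All 6 guide libraries were below all sgC libraries, and the sgZ1 libraries were the lowest. It fell by 0.57 ± 0.09 in sgZ1 (adjusted p = 0.000645), by 0.34 ± 0.09 in sgZ3 (adjusted p = 0.0136) and by 0.46 ± 0.077 over both (adjusted p = 0.00138). No other gene of the list was called lower under each guide. CDC25B stood at 134, 124 and 137 CPM in sgC, 172, 157 and 192 in sgZ1, and 120, 131 and 133 in sgZ3. Only the sgZ1 libraries were raised: CDC25B rose there by 0.39 ± 0.097 (adjusted p = 0.0107) and was lower in sgZ3 than in sgZ1 by 0.44 on the log2 scale (SE 0.097, adjusted p = 0.00551).

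CKS2, a small subunit that docks on CDK1, stood at 168, 190 and 144 CPM in sgC, 159, 224 and 189 in sgZ1, and 276, 249 and 207 in sgZ3. It rose in sgZ3 by 0.54 ± 0.15 (adjusted p = 0.0138) and over both guides by 0.37 ± 0.13 (adjusted p = 0.045). All sgZ3 libraries lay above all sgC libraries. Its paralog CKS1B ranged from 159 to 236 CPM and was not called. FOXM1, the transcription factor of the G2/M program, stood at 108, 104 and 129 CPM in sgC, 147, 112 and 165 in sgZ1, and 104, 119 and 128 in sgZ3. The groups overlapped, and differences of 0.32 ± 0.14 in sgZ1 and 0.04 ± 0.14 in sgZ3 did not pass.

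Several of these calls ended when 1 library was left out, while their log2 differences kept their direction. With each library left out in turn, CCNB1 in sgZ3 ranged from 0.34 to 0.45 and CCNB2 in sgZ1 from -0.35 to -0.27. All groups share the estimate of the spread, so a library outside a comparison can change its calls. In sgZ3, the call of CCNB1 ended without sgC replicate 3 or sgZ3 replicate 1 (adjusted p = 0.0522 and 0.051), and that of CDC25C without sgC replicate 1 or sgZ3 replicate 2 (adjusted p = 0.056 and 0.0602). CKS2 lost its sgZ3 call without sgC replicate 1 or 3 or sgZ3 replicate 1 (adjusted p = 0.0525 to 0.0697). In sgZ1, CDC25B lost its call without sgC replicate 2 (adjusted p = 0.0581), and CCNB2 lost its own without any sgC library, sgZ1 replicate 1 or 3 or sgZ3 replicate 2 (adjusted p = 0.063 to 0.16). The CCNB2 call also ended with RLE factors and with no low-count filter. CDC25C over both guides and in sgZ1 was called under every alternative tried.

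**Figure D4:**
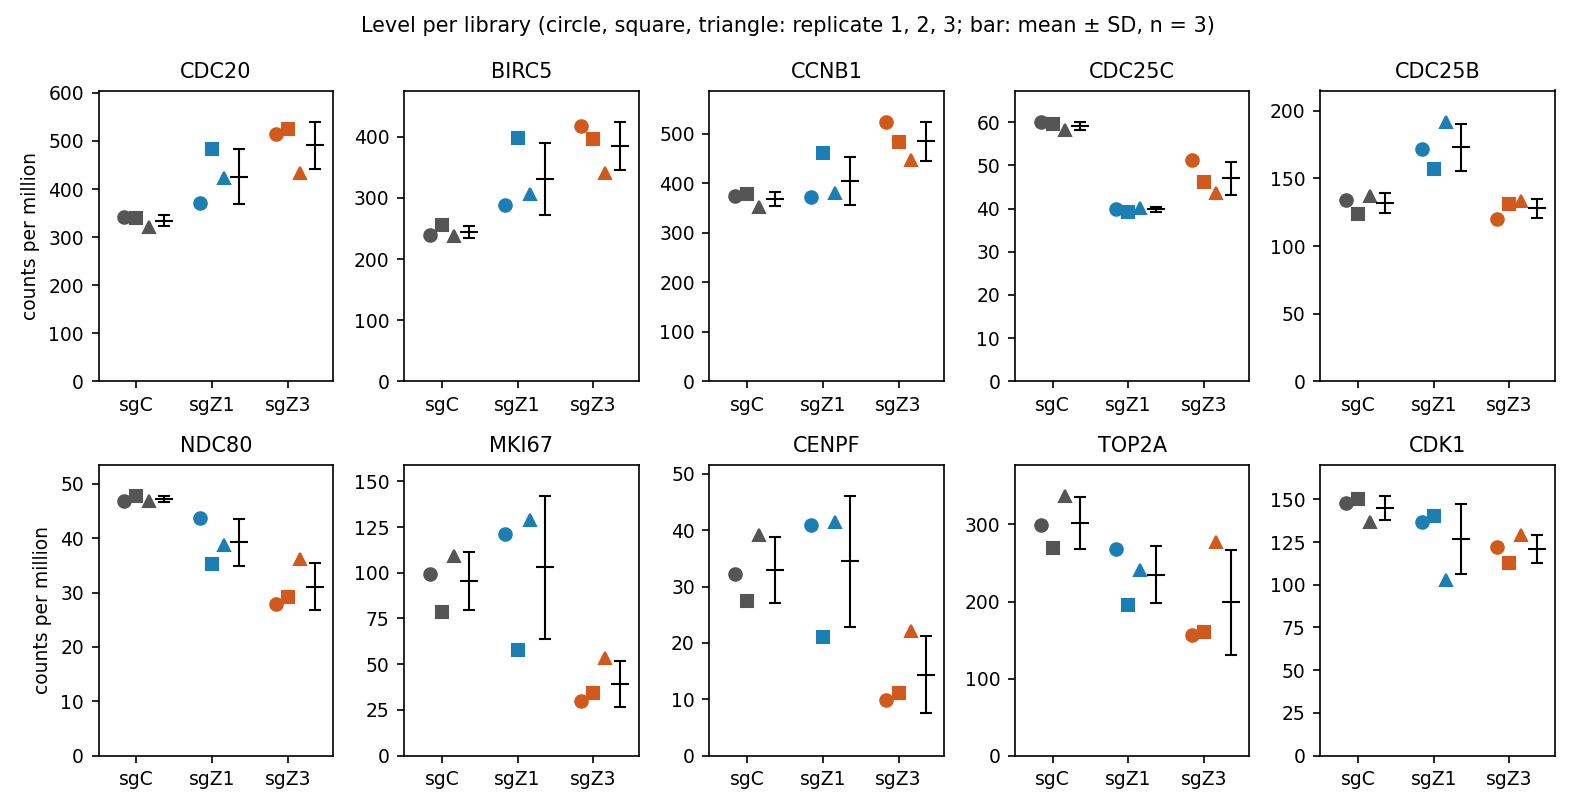
Level in CPM (y axes, from 0) of 10 genes in each library; circles, squares and triangles are replicates 1, 2 and 3, and bars give the mean ± SD (n = 3). CDC25C is at 39.1 to 40.2 in sgZ1 against 58.2 to 60 in sgC, and MKI67 is at 30 to 53.3 in sgZ3 against 78.5 to 109 in sgC.

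Among the mitotic and checkpoint kinases and the chromosomal passenger complex, which corrects faulty attachments, 4 of 9 rose and 1 fell in sgZ3, and 1 rose in sgZ1. BIRC5, survivin, the passenger subunit that targets centromeres, stood at 239, 256 and 237 CPM in sgC, 289, 398 and 306 in sgZ1, and 417, 397 and 340 in sgZ3. Every guide library exceeded every sgC library. BIRC5 rose 1.36-fold in sgZ1 (log2 0.44 ± 0.12, adjusted p = 0.0197), 1.58-fold in sgZ3 (log2 0.66 ± 0.12, adjusted p = 0.00227) and 1.46-fold over both (log2 0.55 ± 0.11, adjusted p = 0.00313). AURKB, the kinase of the same complex, stood at 105, 116 and 97.7 CPM in sgC, 115, 143 and 129 in sgZ1, and 170, 165 and 122 in sgZ3. It rose in sgZ3 by 0.52 ± 0.13 (adjusted p = 0.0105) and over both guides by 0.40 ± 0.12 (adjusted p = 0.0212). Replicate 3 was the lowest of the sgZ3 libraries for both genes. CDCA8, borealin, the third member of the complex on this list, was at 98.5 ± 2.29 CPM in sgC and 112 ± 5.59 in sgZ3 (SD, n = 3), with all sgZ3 libraries above all others, and was not called.

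PLK1, which promotes mitotic entry and spindle assembly, stood at 224, 224 and 221 CPM in sgC, 232, 265 and 266 in sgZ1, and 282, 275 and 253 in sgZ3. No guide library overlapped the sgC libraries. It rose by 0.28 ± 0.086 in sgZ3 (adjusted p = 0.0253) and by 0.23 ± 0.075 over both guides (adjusted p = 0.0319). AURKA, the kinase of the spindle poles, stood at 162, 155 and 157 CPM in sgC, 144, 163 and 144 in sgZ1, and 199, 185 and 178 in sgZ3. It rose by 0.25 ± 0.087 in sgZ3 (adjusted p = 0.0427) and was the one gene higher in sgZ3 than in sgZ1, by 0.32 ± 0.087 (adjusted p = 0.0176). Both calls in sgZ3 ended once length and GC trends were taken out (PLK1 0.11, adjusted p = 0.19; AURKA 0.11, adjusted p = 0.17).

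The checkpoint kinase TTK (MPS1) went the other way. Its levels were 78.1, 79 and 77.6 CPM in sgC, 77.7, 69.2 and 61.9 in sgZ1, and 53.9, 49.3 and 65.6 in sgZ3. The sgC libraries were nearly equal and all sgZ3 libraries lay below them. TTK fell by 0.47 ± 0.12 in sgZ3 (adjusted p = 0.00995) and by 0.32 ± 0.1 over both guides (adjusted p = 0.0297). BUB1 (161 to 203 CPM), BUB1B (79.7 to 110) and NEK2 (111 to 135), kinases and a pseudokinase of the checkpoint and the centrosome, were not called in any comparison. With the length and GC trends removed, BUB1B was called higher and NEK2 lower in sgZ3.

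BIRC5 in sgZ3 and over both guides was called under every alternative, but its sgZ1 call ended without sgC replicate 1 or 3 or sgZ1 replicate 2 (adjusted p = 0.0513 to 0.085). In sgZ3, the call of TTK ended without sgZ3 replicate 2 (adjusted p = 0.0551), and that of AURKB without sgC replicate 3 or sgZ3 replicate 1 or 2 (adjusted p = 0.05 to 0.055). The PLK1 call ended without any 1 sgC library or sgZ3 replicate 1 or 2 (adjusted p = 0.0683 to 0.1). AURKA lost its call without the same libraries and without sgZ1 replicate 1 (adjusted p = 0.0524 to 0.168). Both sgZ3 calls also ended with other normalizations: with upper-quartile factors the adjusted p was 0.0666 for PLK1 and 0.115 for AURKA, and with library totals 0.232 and 0.386. Both ended with no low-count filter (adjusted p = 0.0617 and 0.122), and AURKA with a minimum mean of 10 CPM (adjusted p = 0.0556).

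The anaphase genes were higher where they changed, with 2 of 4 called in sgZ3 and none lower. CDC20, the activator of the anaphase-promoting complex, stood at 342, 340 and 321 CPM in sgC, 371, 484 and 423 in sgZ1, and 514, 524 and 434 in sgZ3. All guide libraries were above all sgC libraries. CDC20 rose 1.27-fold in sgZ1 (log2 0.35 ± 0.11, adjusted p = 0.0331), 1.46-fold in sgZ3 (log2 0.55 ± 0.11, adjusted p = 0.00294) and 1.37-fold over both (log2 0.45 ± 0.095, adjusted p = 0.00464). PTTG1, securin, the inhibitor of separase, stood at 104, 111 and 98.4 CPM in sgC, 109, 133 and 116 in sgZ1, and 160, 149 and 122 in sgZ3. It rose by 0.46 ± 0.12 in sgZ3 (adjusted p = 0.0104) and by 0.32 ± 0.1 over both guides (adjusted p = 0.0294), with sgZ3 and sgC apart. UBE2C, the ubiquitin-conjugating enzyme of the complex, was at 64.1 ± 2.74 CPM in sgC, 71.9 ± 3.05 in sgZ1 and 76.6 ± 13.5 in sgZ3 (SD, n = 3). No comparison called it. CDCA3, which promotes destruction of the mitotic inhibitor WEE1, was at only 1.01 to 1.79 CPM and was not called.

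CDC20 in sgZ3 and over both guides was called under every alternative. Its sgZ1 call ended without any 1 sgC library or sgZ1 replicate 2 or 3 (adjusted p = 0.078 to 0.118) and with the length and GC trends removed (0.19, adjusted p = 0.0816). PTTG1 lost its sgZ3 call without sgC replicate 3 or sgZ3 replicate 1 (adjusted p = 0.0539 and 0.0532) and with those trends removed (0.17, adjusted p = 0.0635).

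At the centromere and kinetochore, 3 of 5 genes fell in sgZ3 and none rose. The 27 other centromere and kinetochore subunits tested did not share this, with 7 higher and 5 lower in sgZ3 (median 0.15). NDC80, the microtubule-binding arm of the outer kinetochore, stood at 46.8, 47.8 and 46.9 CPM in sgC, 43.8, 35.2 and 38.8 in sgZ1, and 27.9, 29.2 and 36.1 in sgZ3. Every guide library was below every sgC library. It fell by 0.60 ± 0.12 in sgZ3 (adjusted p = 0.00291) and by 0.43 ± 0.099 over both guides (adjusted p = 0.00714). NUF2, the partner of NDC80 in the same complex, stood at 47.4, 42.7 and 44.3 CPM in sgC, 43.4, 38.4 and 37 in sgZ1, and 35.7, 31.3 and 39.8 in sgZ3. It fell in sgZ3 by 0.33 ± 0.11 (adjusted p = 0.0342), all sgZ3 libraries lying below all sgC libraries.

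CENPF, a large outer-kinetochore and corona protein made in G2, stood at 32.3, 27.4 and 39.1 CPM in sgC, 40.9, 21.1 and 41.5 in sgZ1, and 9.81, 11.1 and 22.1 in sgZ3. All sgZ3 libraries were below all sgC libraries, replicates 1 and 2 far below, and sgZ1 replicate 2 stood apart from the other sgZ1 libraries. CENPF fell to 0.438 times its sgC level in sgZ3 (log2 -1.19 ± 0.34, adjusted p = 0.0217), and sgZ1 was at 0.06 ± 0.32. With a longest transcript of 10.3 kb it is the second longest of the list; after removal of the length and GC trends it was still called in sgZ3, at -0.80. CENPA, the centromeric histone, ranged from 32.2 to 46.1 CPM and the motor protein CENPE from 1.3 to 3.01, and neither was called.

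NDC80 in sgZ3 and over both guides was called under every alternative. CENPF lost its sgZ3 call without sgC replicate 1 or 3 or sgZ3 replicate 1 or 2 (adjusted p = 0.0725 to 0.102), and its value was -1.65 without sgZ3 replicate 3. NUF2 lost its own without any 1 sgC library or sgZ3 replicate 1 or 2 (adjusted p = 0.0566 to 0.16).

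Of the 6 kinesins, which slide and sort spindle microtubules, 1 fell in sgZ3. KIF11 (Eg5), the motor that pushes spindle poles apart, stood at 140, 146 and 166 CPM in sgC, 142, 107 and 125 in sgZ1, and 98.1, 102 and 137 in sgZ3. It fell by 0.42 ± 0.14 in sgZ3 (adjusted p = 0.0346) and by 0.35 ± 0.12 over both guides (adjusted p = 0.0431). The sgZ3 libraries were all below the sgC libraries, but sgZ3 replicate 3 was close to them. With length and GC trends removed the sgZ3 difference was -0.16 (adjusted p = 0.237), and the call also ended without any 1 sgC library, sgZ1 replicate 3 or sgZ3 replicate 1 or 2 (adjusted p = 0.0544 to 0.137). The others were not called: KIF2C at 145 to 158 CPM, KIF20A at 90.4 to 110, KIF23 at 67.1 to 89.7, KIF4A at 24.5 to 53.6 and KIF20B at 11 to 30. KIF2C, the microtubule depolymerase of the centromere, had the narrowest range, with -0.01 ± 0.078 in sgZ1 and -0.04 ± 0.078 in sgZ3.

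Of the 8 tested spindle and microtubule-binding genes, 4 fell in sgZ3 and none rose. HMMR, a hyaluronan receptor that works at spindle poles, stood at 63.8, 51.6 and 61 CPM in sgC, 52.5, 40 and 44.5 in sgZ1, and 27.5, 27.2 and 47.5 in sgZ3. It fell by 0.78 ± 0.2 in sgZ3 (adjusted p = 0.00981) and by 0.57 ± 0.16 over both guides (adjusted p = 0.0201). DLGAP5 (HURP), which stabilizes spindle fibres near chromosomes, stood at 77.7, 72.1 and 76.3 CPM in sgC, 83.1, 69.2 and 76.5 in sgZ1, and 47.6, 44.7 and 70.1 in sgZ3. It fell in sgZ3 by 0.48 ± 0.15 (adjusted p = 0.0277), and sgZ1 was at 0.02 ± 0.15. For both genes sgZ3 replicates 1 and 2 were alike and replicate 3 stood between them and sgC.

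CKAP2 and CKAP2L, related microtubule-associated proteins, both fell in sgZ3. CKAP2 stood at 145, 139 and 158 CPM in sgC, 138, 108 and 114 in sgZ1, and 98.4, 95.3 and 128 in sgZ3. All guide libraries were below all sgC libraries. It fell by 0.46 ± 0.13 in sgZ3 (adjusted p = 0.0171) and fell by 0.38 ± 0.11 over both guides (adjusted p = 0.0222). CKAP2L stood at 30.2, 32.4 and 33.9 CPM in sgC, 30.8, 19.3 and 29.6 in sgZ1, and 15.1, 15.8 and 24.8 in sgZ3. It fell by 0.79 ± 0.2 in sgZ3 (adjusted p = 0.0109) and fell by 0.53 ± 0.17 over both guides (adjusted p = 0.0306), with sgZ1 replicate 2 apart from its group.

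TPX2, which activates AURKA on the spindle, was at 210 ± 12.9 CPM in sgC, 244 ± 33.7 in sgZ1 and 181 ± 38 in sgZ3 (SD, n = 3). Neither guide differed from sgC past the threshold, but sgZ3 was lower than sgZ1 by 0.42 on the log2 scale (SE 0.14, adjusted p = 0.0421). GTSE1 (74.2 to 101 CPM), PSRC1 (51.1 to 83.2) and PRC1 (2.06 to 3.48) were not called. NUSAP1 was at 0.161 to 0.641 CPM. For NUSAP1 62.2% and for PRC1 58.4% of the exonic bases are shared with a readthrough gene annotated on the same strand, or for PRC1 also an antisense gene (GENCODE 29), and how such reads were counted is not given in the sources used here, so both levels are uncertain.

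In sgZ3, HMMR lost its call without replicate 2 of sgZ3 (adjusted p = 0.0501) and CKAP2L without sgZ3 replicate 1 or 2 (adjusted p = 0.0517 and 0.0566). CKAP2 lost it without sgC replicate 1 or 3 or sgZ3 replicate 1 or 2 (adjusted p = 0.0538 to 0.0834) and with length and GC trends removed (-0.26, adjusted p = 0.0511). DLGAP5 lost it without any 1 sgC library or sgZ3 replicate 1 or 2 (adjusted p = 0.0508 to 0.125). Without sgZ3 replicate 3 the differences were larger, -1.10 for HMMR, -0.71 for DLGAP5, -0.60 for CKAP2 and -1.06 for CKAP2L.

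None of the cytokinesis genes was called in any comparison. ECT2, the exchange factor that turns on RhoA at the cleavage plane, ranged from 215 to 324 CPM, and its partner RACGAP1 from 187 to 215. ANLN, anillin, the scaffold of the contractile ring, ranged from 135 to 215 CPM, and the highest value belonged to sgZ3 replicate 3, where the other 8 libraries were at or below 150. With length and GC trends removed ANLN was called higher in sgZ3.

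Of the 3 chromosome genes, 2 fell in sgZ3. MKI67, whose protein coats mitotic chromosomes and is the common marker of proliferation, stood at 99.3, 78.5 and 109 CPM in sgC, 121, 57.9 and 129 in sgZ1, and 30, 34.3 and 53.3 in sgZ3. All sgZ3 libraries were below every other library, and sgZ1 replicate 2 stood well below its group. MKI67 fell to 0.409 times its sgC level in sgZ3 (log2 -1.29 ± 0.31, adjusted p = 0.0107); sgZ1 differed by 0.10 ± 0.3, and both guides together by -0.59 ± 0.26, which did not pass (adjusted p = 0.0991). The longest transcript of MKI67, 12.7 kb, is the longest of the list. After removal of the length and GC trends MKI67 was still called in sgZ3, at -0.94.

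TOP2A, topoisomerase II alpha, which untangles sister chromatids, stood at 299, 270 and 337 CPM in sgC, 268, 195 and 241 in sgZ1, and 157, 161 and 277 in sgZ3. It fell by 0.60 ± 0.2 in sgZ3 (adjusted p = 0.035) and by 0.48 ± 0.17 over both guides (adjusted p = 0.0465). The third sgZ3 library lay within the sgC range. SMC4, a condensin core subunit, was at 83.2 ± 11.3 CPM in sgC, 84.3 ± 23.9 in sgZ1 and 53.3 ± 23.9 in sgZ3 (SD, n = 3); the sgZ3 difference of -0.64 ± 0.29 did not pass (adjusted p = 0.111). Of the exonic bases of SMC4, 25.6% are shared with TRIM59 and IFT80 on the other strand.

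MKI67 lost its sgZ3 call without sgC replicate 3 or sgZ3 replicate 1 or 2 (adjusted p = 0.0602 to 0.0641). TOP2A lost its own without any 1 sgC library, sgZ1 replicate 3 or sgZ3 replicate 1 or 2 (adjusted p = 0.0567 to 0.142) and with length and GC trends removed (-0.31, adjusted p = 0.0987), and was at -0.92 without sgZ3 replicate 3. Over both guides, the calls of CCNB1, CKS2, PLK1, AURKB, TTK, PTTG1, KIF11, HMMR, CKAP2, CKAP2L and TOP2A each ended when at least 1 library was left out, and those of CDC25C, BIRC5, CDC20 and NDC80 did not. The calls over both guides of CCNB1, CKS2 and PLK1 also ended with upper-quartile factors and library totals, and that of PTTG1 with library totals. These 4 genes lie on chromosome 5 from 138285265 to 138338355 (CDC25C, minus strand), 17 from 78214186 to 78225636 (BIRC5, plus), 1 from 43358955 to 43363203 (CDC20, plus) and 18 from 2571511 to 2616635 (NDC80, plus; GRCh38). BIRC5, CDC20 and NDC80 share no exonic base with another annotated gene, and CDC25C shares 8.8% with FAM53C on the other strand.

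Between the guides 24 of 47 genes were above 0 in sgZ3 against sgZ1, and 6 of the 7 calls were lower in sgZ3. MKI67 was lower in sgZ3 than in sgZ1 by 1.39 on the log2 scale (SE 0.31, adjusted p = 0.00849) and CENPF by 1.25 (SE 0.34, adjusted p = 0.0208). DLGAP5 was lower by 0.49 (SE 0.15, adjusted p = 0.0286) and NDC80 by 0.34 (SE 0.12, adjusted p = 0.0497), beside CDC25B, TPX2 and AURKA given above. For MKI67 the sgZ1 and sgZ3 libraries did not overlap, while for CENPF, DLGAP5, NDC80 and TPX2 they did, with sgZ1 replicate 2 the lowest of its group for CENPF, DLGAP5, NDC80 and TPX2. For CDC25B and AURKA they did not. CDC25B was called under every alternative tried, and each of the other 6 calls ended without at least 1 library.

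In sgZ3 the direction of a difference went with the length of the transcript. Of the 10 tested genes under 2 kb, 4 were higher and 1 lower, with a median of 0.29. Of the 25 between 2 and 4 kb, 4 were higher and 6 lower (median -0.04), and of the 12 of 4 kb or more none was higher and 5 were lower (median -0.53). All tested genes leaned the same way: 29.2% under 2 kb were higher and 5.55% lower (median 0.24), and 9.3% of 4 kb or more were higher and 28.6% lower (median -0.22). Across the 47 genes Spearman's rho between log2 difference and length was -0.65 in sgZ3, -0.12 in sgZ1 and -0.72 between the guides, and across all 14603 genes with a length -0.36, -0.15 and -0.27. With GC content rho was 0.64 in sgZ3 and 0.58 in sgZ1 across the 47 genes, and 0.21 and 0.29 across all genes. These are descriptions across genes of the same libraries, which are not independent replicates.

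With the length and GC trends taken out, 7 genes were higher and 11 lower in sgZ3. Of all 14603 genes fitted so, 3263 were higher and 2488 lower, and the difference between the shares was not tested. Of the 20 sgZ3 calls 6 ended (PLK1, AURKA, PTTG1, KIF11, CKAP2 and TOP2A) and 4 were added (CDK1, NEK2, BUB1B and ANLN). Over both guides 7 ended (PLK1, AURKB, PTTG1, KIF11, CKAP2, CKAP2L and TOP2A) and 3 were added (CCNB2, BUB1B and ANLN). In sgZ1 the call of CDC20 ended and CENPA was added (-0.22, adjusted p = 0.0451), while CCNB2 (-0.28), CDC25B (0.29), CDC25C (-0.60) and BIRC5 (0.37) were still called. Between the guides none ended and TTK, KIF4A, PSRC1, ANLN and ECT2 were added.

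**Figure D5:**
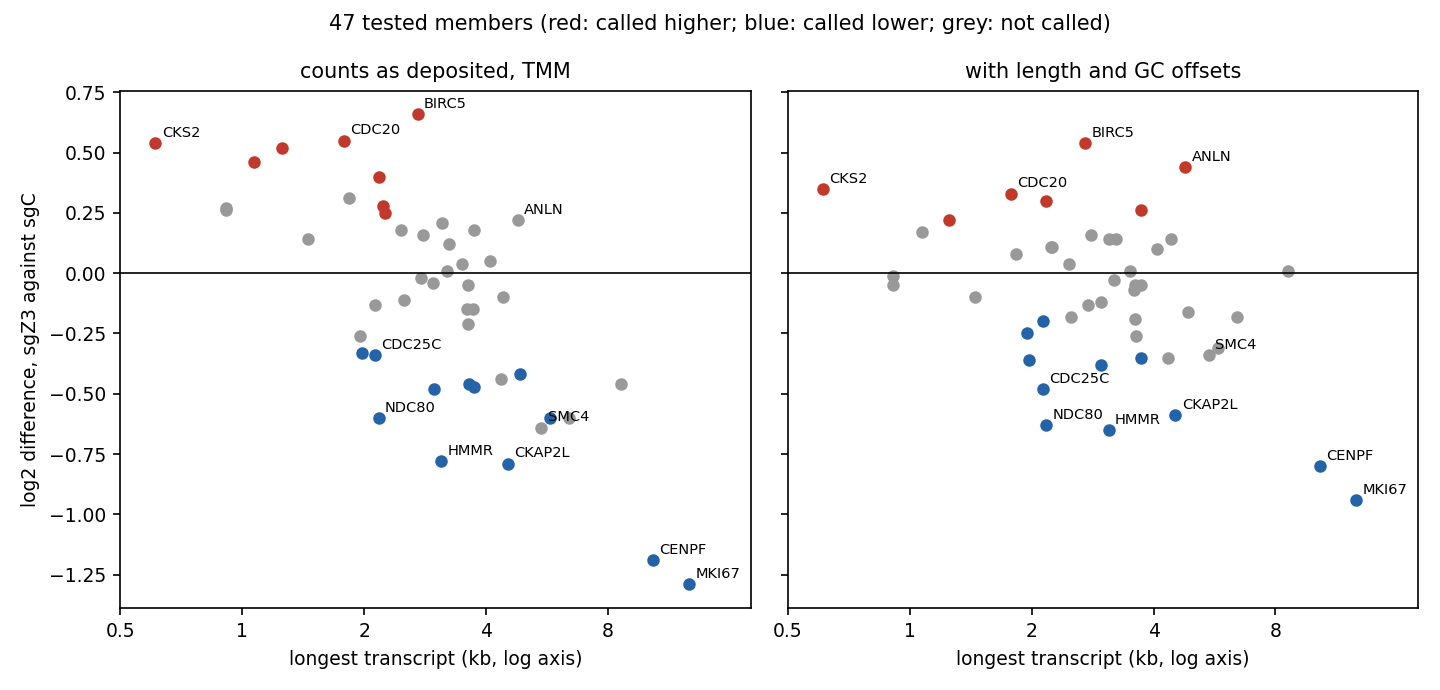
Log2 difference of sgZ3 from sgC (y axes) against the longest transcript in kb (x axes, log scale) for the 47 tested genes, from the counts as deposited (left) and with length and GC offsets (right). On the left the longest, MKI67 and CENPF, are at -1.29 and -1.19; on the right they are at -0.94 and -0.80.

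Per kb of transcript the levels of the list spanned a wide range in every group. In sgC, CKS2 had the highest level at 273 CPM per kb, followed by CKS1B at 191, CDC20 at 188 and CCNB1 at 170. At the low end were MKI67 at 7.55, CKAP2L at 7.1, KIF20B at 3.96 and CENPF at 3.2. PRC1 at 0.644, CDCA3 at 0.535, CENPE at 0.32 and NUSAP1 at 0.128 CPM per kb were the lowest. The order at the top was the same in sgZ3 but for CDC20 at 276, which was above CKS1B at 230. These are levels over the longest annotated transcript, so a gene that uses a shorter one is understated.

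The 24 tested genes called in no comparison were CCNA2, CDK1, CKS1B, FOXM1, NEK2, BUB1, BUB1B, CDCA8, UBE2C, CDCA3, CENPA, CENPE, KIF20A, KIF20B, KIF23, KIF2C, KIF4A, PRC1, GTSE1, PSRC1, ANLN, ECT2, RACGAP1 and SMC4. Their log2 differences ran from -0.32 to 0.21 over both guides, from -0.25 to 0.32 in sgZ1 and from -0.64 to 0.31 in sgZ3. A difference that misses the threshold does not show that levels were equal, and for SMC4, KIF20B and CENPE the standard errors in sgZ3 were 0.25 to 0.31.

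Genes of the same machines outside the list moved in both directions as well. Of 113 tested genes on 7 lists of other mitosis genes, 26 rose and 13 fell over both guides, 19 and 4 in sgZ1, 30 and 19 in sgZ3, and 6 were higher and 13 lower in sgZ3 than in sgZ1. Their median over both guides was 0.02, and the lists were drawn up with earlier results of these data known. Of all tested genes 18.6% were higher and 14.6% lower over both guides, 15.5% and 10.3% in sgZ1, and 19.2% and 17.1% in sgZ3. Between the guides 12.8% were higher and 15.8% lower. These shares are the background for each list below, and the differences from them were not tested. Of 17 genes of the anaphase-promoting complex and its regulators, 5 rose and 2 fell over both guides, and 9 rose and 1 fell in sgZ3. The small subunits CDC26 (0.84 ± 0.11, adjusted p = 0.000308) and ANAPC15 (0.72 ± 0.14, adjusted p = 0.00289) and the cullin-like subunit ANAPC2 (0.65 ± 0.098, adjusted p = 0.000762) were higher over both guides. ANAPC2 stood at 56.4 ± 3.3 CPM in sgC, 84.4 ± 9.88 in sgZ1 and 93.2 ± 8.48 in sgZ3 (SD, n = 3).

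Of the condensin, cohesin and separase genes, 4 of 19 rose and 2 fell over both guides, to which the values of the other lists below also refer. CDCA5, sororin, which protects cohesion, rose by 0.59 ± 0.11 (adjusted p = 0.00303) and NCAPD3, a condensin II subunit, by 0.38 ± 0.079 (adjusted p = 0.00444). STAG2, a cohesin subunit, fell by 0.47 ± 0.1 (adjusted p = 0.00602). Of the other centromere and kinetochore subunits 8 of 27 rose and 2 fell. ZWINT, a kinetochore scaffold, rose by 0.55 ± 0.098 (adjusted p = 0.00178) and CENPN by 0.36 ± 0.089 (adjusted p = 0.00965), while CENPU of the inner kinetochore fell by 0.36 ± 0.074 (adjusted p = 0.00399).

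Of the other spindle checkpoint genes, 1 of 9 rose, TRIP13, the ATPase that remodels MAD2, by 0.57 ± 0.12 (adjusted p = 0.00352), and 1 fell, KNTC1, by 0.26 ± 0.088 (adjusted p = 0.0408). MAD2L1 was at 0.27 ± 0.11 and did not pass. Among 18 other mitotic kinesins and spindle genes 2 rose and 3 fell: TACC3 by 0.32 ± 0.093 (adjusted p = 0.0219) and FAM83D by 0.29 ± 0.098 (adjusted p = 0.041) were higher, and CIT, citron kinase, was lower at -0.79 ± 0.24 (adjusted p = 0.0291). CIT stood at 22.9 ± 2.79 CPM in sgC, 20 ± 6.66 in sgZ1 and 8.67 ± 3.7 in sgZ3 (SD, n = 3). The last of these lists holds 10 further mitosis genes, mostly regulators of mitotic entry. Of these, PKMYT1, which inhibits CDK1, rose by 0.47 ± 0.083 (adjusted p = 0.00174) and GAS2L3 fell by 0.55 ± 0.18 (adjusted p = 0.0384). BORA was at -0.17 ± 0.081 and did not pass.

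Of 13 DREAM and MuvB genes 5 rose and 2 fell over both guides, where 18.6% of all tested genes were higher and 14.6% lower, 5 and 1 in sgZ1, and 4 and 3 in sgZ3. The median over both guides was -0.03. LIN54, the MuvB subunit that binds the CHR, was at -0.22 (adjusted p = 0.131) and was not called. E2F4, the E2F of the DREAM complex, rose by 0.69 ± 0.092 in sgZ1 (adjusted p = 0.000208) and by 0.66 ± 0.092 in sgZ3 (adjusted p = 0.000506). Its partner TFDP1 rose over both guides by 0.49 ± 0.08 (adjusted p = 0.00112), and the pocket protein RBL2 (p130) fell by 0.57 ± 0.083 (adjusted p = 0.00063). RBL2 stood at 81.8 ± 4.74 CPM in sgC, 56.2 ± 4.48 in sgZ1 and 53.9 ± 3.73 in sgZ3 (SD, n = 3).

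Genes of the earlier phase of the cycle were mostly higher. Of 47 DNA replication and G1/S genes, 34 rose and 1 fell over both guides (median 0.49), 30 and 1 in sgZ1 (median 0.43), and 30 and 2 in sgZ3 (median 0.52), against the background shares above. FEN1, the flap endonuclease, rose by 1.03 ± 0.096 (adjusted p = 7.26e-05), CCNE1, cyclin E1, by 0.99 ± 0.097 (adjusted p = 8.64e-05) and UNG, uracil glycosylase, by 0.86 ± 0.084 (adjusted p = 8.64e-05). Summed, these genes stood at 5740 ± 336 CPM in sgC, 7580 ± 373 in sgZ1 and 8290 ± 464 in sgZ3 (SD, n = 3), while the 48 mitosis and G2/M genes stood at 5930 ± 50.3, 6060 ± 98.7 and 6200 ± 115. The difference between the lists was not tested.

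Of 8 CDK inhibitors, 2 rose and 1 fell over both guides, where 18.6% of all tested genes were higher and 14.6% lower. CDKN2A, the p16 and ARF gene, stood at 2.45 ± 0.681 CPM in sgC, 35 ± 2.39 in sgZ1 and 1.02 ± 0.279 in sgZ3 (SD, n = 3), so its mean over both guides joins a rise in sgZ1 (log2 3.84 ± 0.19, adjusted p = 5.34e-08) with a fall in sgZ3 (log2 -1.25 ± 0.25, adjusted p = 0.00323). Its neighbour CDKN2B fell over both guides by 0.55 ± 0.12 (adjusted p = 0.00424). CDKN3, a phosphatase that acts on CDK1 and CDK2, rose by 0.38 ± 0.13 (adjusted p = 0.0374).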

How the data were processed

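Poly(A) RNA-seq of DLD1 with 3 libraries each of sgC, sgZ1 and sgZ3 was used; 9 rRNA libraries were not used here. The authors deposited 1 table of raw counts for 47021 genes. The submitters' processing notes name GRCh38 (hg38) as the build and, as tools, HTSeq, DESeq2, STAR 2.5.2b and SAMtools 1.9. What each tool did, the annotation release and the strand setting were not given in the sources used here, so reads of overlapping genes cannot be told apart.

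Here edgeR 4.0.16 (R 4.3.3) with TMM factors, its filter by expression (14732 genes kept) and the robust quasi-likelihood test was fitted over the 9 libraries with group as the only term, with Benjamini-Hochberg adjustment over all tested genes. Standard errors are the log2 difference divided by the square root of F. Transcript length and GC content came from GENCODE 29 and matched 99.1% of tested genes; promoters came from RefSeq. The common biological coefficient of variation was 12.7%.

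Named genes were the 20 with the smallest adjusted p in any comparison among members called, plus CCNB1, CDK1, MKI67, TOP2A and FOXM1, and up to 3 genes of each other list by adjusted p over both guides. Other members are given by group means, ranges and counts. Members and lists were chosen with earlier results of these data known. Alternatives were 3 other normalizations, other filters, DESeq2 1.42.0, a false discovery rate of 0.01, other fits and each library left out, plus length and GC offsets (chosen after the data were seen).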

Additional observations from a re-analysis of the deposited data

Results flagged for a closer look

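For 7 genes the 2 guides themselves differed in edgeR's quasi-likelihood test of sgZ3 against sgZ1. The log2 differences were -1.39 for MKI67, -1.25 for CENPF, -0.49 for DLGAP5, -0.44 for CDC25B, -0.42 for TPX2, -0.34 for NDC80 and 0.32 for AURKA. Of these, MKI67, CENPF, DLGAP5 and NDC80 were called lower and AURKA higher in sgZ3 against sgC and not in sgZ1, CDC25B was called higher in sgZ1 alone, and TPX2 was called in neither. CENPF, DLGAP5, TPX2 and NDC80 overlapped between the guides' libraries. With length and GC offsets all 7 calls were kept. The guides also differed in MSH6 and CDKN2A, which were high in the 3 sgZ1 libraries, and the part of this in the differences was not tested. Groups of 3 libraries were not tested for outlying samples.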

How the results depend on the processing

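No call of a single gene turned into a call in the other direction under any alternative. Over all alternatives 234 single-gene values lost a call and 198 gained one. Values that were not called with all libraries could change sign, such as MKI67 in sgZ1, which ranged from -0.1 to 0.37. At 0.37, without sgZ1 replicate 2 and sgZ3 replicate 3 together, it was called higher. Each library left out in turn gave 2 to 8 genes higher and 2 to 15 lower over both guides, 1 to 4 and 1 to 6 in sgZ1, 2 to 12 and 1 to 19 in sgZ3, and 0 to 12 and 1 to 15 in sgZ3 against sgZ1. The highest counts came without sgZ3 replicate 3. The lowest came without sgC replicate 1 over both guides and in sgZ1, without sgC replicate 3 (higher) or sgZ3 replicate 2 (lower) in sgZ3, and without sgZ1 replicate 1 (higher) or sgZ3 replicate 1 (lower) between guides. Of all tested genes, 1360 were higher and 841 lower over both guides without sgC replicate 1, and 3303 and 3034 without sgZ3 replicate 3. In sgZ1, 1442 and 687 were without sgC replicate 1, and 2824 and 2031 without sgZ3 replicate 3. In sgZ3, 1777 were higher without sgC replicate 3, 1222 lower without sgZ3 replicate 2, and 3393 and 3403 without sgZ3 replicate 3. Between guides, 1035 were higher without sgZ1 replicate 1, 1537 lower without sgZ3 replicate 1, and 2871 and 3282 without sgZ3 replicate 3. At a false discovery rate under 0.01, 2 were higher and 2 lower over both guides, 0 and 1 in sgZ1, 2 and 3 in sgZ3, and 0 and 2 between guides. Over all tested genes these counts were 1409 and 869, 1393 and 612, 1599 and 1010, and 927 and 1327. Without sgZ1 replicate 2 and sgZ3 replicate 3 together, 20 were lower over both guides, 8 higher and 9 lower in sgZ1, 21 lower in sgZ3, and 13 higher and 20 lower between guides. The counts over all tested genes in that fit are given above. Over both guides, 4 were higher with upper-quartile factors, 3 higher and 13 lower with library totals, and 5 lower with length and GC offsets. Over all tested genes these counts were 2275, 1885 and 3265, and 2344. In sgZ1, 1 was lower with RLE factors and 4 with only the groups compared, where 1523 and 1829 of all tested genes were. Between guides, 0 were higher with library totals, 4 with DESeq2 and 4 with length and GC offsets, 3 were higher and 12 lower with no low-count filter, and 0 and 3 with only the groups compared. The counts over all tested genes were, in the same order, 1148, 2059, 2774, 1912 and 2988, and 1314 and 1719. Replicate numbers did not pair the libraries: 3 of 9 same-number pairs had a correlation above 0.1, and 4 of 9 libraries correlated best with their own number. The fit with the replicate block gave 7 higher and 11 lower over both guides, 4 and 2 in sgZ1, 8 and 15 in sgZ3, and 5 and 10 between guides, and lost no call of these genes. Over all tested genes that fit gave 2973 and 2515, 2484 and 1718, 3058 and 2916, and 2268 and 2737. The cause of these changes was not tested. CDCA3, CENPE and PRC1 stood at 1.01 to 3.48 CPM, and NUSAP1 was below the filter.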
